A study of Mus musculus with 20 samples.

Results

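The transcriptional response of the hippocampus to dexamethasone was followed in wild-type mice, in which every form of the glucocorticoid receptor can be made. The measurements are the gene counts of the 10 libraries that the labels call wild-type, out of 20 libraries in the study. All mice were male C57BL/6 whose adrenal glands had been removed at about 2.5 months of age, controls included, which removes the adrenal source of corticosterone in every group. At 2 weeks after surgery, 5 wild-type mice were injected intraperitoneally with phosphate-buffered saline (PBS) and 5 with dexamethasone at 1 mg per kg, and the hippocampus was taken 6 h later. The other 10 libraries came from mice homozygous for a knockin of Nr3c1, the receptor gene, in which the start codons of 7 shorter receptor forms were mutated and that of the full-length form, GRA, was kept. They received the same treatments in 2 groups of 5 and serve here for 1 test of difference and for the direction of the wild-type genes in libraries outside the wild-type comparison. By the labels the 5 libraries of a group are biological replicates. No label ties a library to an animal, so the p-values describe the spread between libraries, taken here as different mice.

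The glucocorticoid receptor waits in the cytosol with chaperones, moves to the nucleus when it binds hormone, and acts there as a transcription factor. It can bind DNA directly at glucocorticoid response elements, paired inverted repeats, and raise transcription, and it can also hold other transcription factors in check. The hippocampus is rich in this receptor and in the related mineralocorticoid receptor, and it takes part in the feedback that restrains the stress axis. Dexamethasone is a synthetic agonist that favours the glucocorticoid receptor, and its entry into brain is limited by drug exporters of the blood-brain barrier. The tissue was taken whole, so a value is a sum over neurons, glia and vessels, and fewer cells of a type cannot be told apart from less RNA per cell.

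The wild-type libraries held 12945784 to 30617506 read pairs assigned to genes. Levels are given as CPM, the counts of a gene over the scaled total of its library. All 8 markers of hippocampal neurons were detected, none was called changed, and their summed level was 2440 to 2718 CPM under PBS and 2444 to 2596 CPM under dexamethasone. Markers of other tissues varied between libraries. The 14 liver markers, of which 11 could be tested and none was called, summed to 242 and 137 CPM in PBS replicates 1 and 2, to 4.74 to 8.29 CPM in the other PBS libraries and to 7.26 to 57.7 CPM under dexamethasone. The 8 choroid plexus markers summed to 1808 CPM in PBS replicate 4, to 69.6 to 361 CPM in the other PBS libraries and to 76.2 to 394 CPM under dexamethasone. The 5 red blood cell markers summed to 97.2 to 242 CPM under PBS and 103 to 359 CPM under dexamethasone, and the 6 meningeal markers to 91.9 to 142 and 64.1 to 166 CPM, with no member of these 3 lists called. The 7 thalamic markers, also without a call, summed to 55.0 to 69.6 and 55.2 to 73.1 CPM. On 2 lists the groups did not overlap. The 5 neutrophil markers summed to 6.24 to 8.11 CPM under PBS and 4.09 to 5.96 CPM under dexamethasone, with 1 of 2 tested called lower. That call was lost without PBS replicate 4 or dexamethasone replicate 1 or 4. The 6 striatal markers summed to 57.4 to 65.1 and 70.5 to 80.7 CPM, with 1 called in each direction. No marker on these lists was at 0 in all wild-type libraries. The part of such tissue in the results was not tested beyond leaving these libraries out.

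Several of the genes that rose have a glucocorticoid response element motif just ahead of an annotated start in the RefSeq promoter table. Its build is GRCm38.p6, whose coordinates are given here, and the counts use mm39. The upstream 250 bases of 5 of them are shown because the motif, in capitals, is what the receptor is known to bind in DNA. The strands are plus for Map3k6, Sgk1, Mt1 and Txnip and minus for Fam107a, and each sequence runs 5′ to 3′ towards an annotated start of the gene.
Sgk1, chr10:21993640-21993889: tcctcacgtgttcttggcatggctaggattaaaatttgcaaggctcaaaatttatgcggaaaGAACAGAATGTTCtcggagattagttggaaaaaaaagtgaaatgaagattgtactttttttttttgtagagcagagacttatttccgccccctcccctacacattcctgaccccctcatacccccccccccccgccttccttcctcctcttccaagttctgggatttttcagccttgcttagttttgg
Mt1, chr8:94178839-94179088: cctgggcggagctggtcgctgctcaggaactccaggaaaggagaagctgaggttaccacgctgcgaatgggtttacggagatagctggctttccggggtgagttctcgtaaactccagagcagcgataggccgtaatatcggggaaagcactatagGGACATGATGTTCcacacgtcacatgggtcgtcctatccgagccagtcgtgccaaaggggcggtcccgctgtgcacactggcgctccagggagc
Fam107a, chr14:8309778-8310027: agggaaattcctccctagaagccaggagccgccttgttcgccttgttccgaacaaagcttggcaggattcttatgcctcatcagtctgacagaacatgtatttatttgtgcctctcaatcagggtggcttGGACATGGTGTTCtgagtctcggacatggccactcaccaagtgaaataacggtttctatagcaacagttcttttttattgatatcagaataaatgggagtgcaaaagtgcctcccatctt
Map3k6, chr4:133240568-133240817: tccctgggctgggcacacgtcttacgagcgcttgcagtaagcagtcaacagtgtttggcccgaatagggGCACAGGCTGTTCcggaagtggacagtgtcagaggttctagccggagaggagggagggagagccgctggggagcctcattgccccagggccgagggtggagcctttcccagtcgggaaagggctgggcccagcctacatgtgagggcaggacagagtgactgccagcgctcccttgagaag
Txnip, chr3:96557707-96557956: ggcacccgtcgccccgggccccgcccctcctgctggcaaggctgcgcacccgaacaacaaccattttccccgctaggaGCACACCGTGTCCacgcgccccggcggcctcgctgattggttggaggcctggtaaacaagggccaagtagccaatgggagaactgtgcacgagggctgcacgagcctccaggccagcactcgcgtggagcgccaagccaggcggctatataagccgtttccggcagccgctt
Capitals mark a match on either strand to the core of the element, GNACA and TGTNC with 3 bases of any kind between them. Counted from the start that the bases shown lead up to, it begins 188 bases ahead in Sgk1, a kinase gene, and 94 in the metallothionein gene Mt1. It begins 120 bases ahead in the actin regulator gene Fam107a, 181 in the kinase gene Map3k6 and 172 in Txnip, which encodes an inhibitor of thioredoxin. Sgk1 has 6 windows in the promoter table and Fam107a 3. For Sgk1 only the window shown holds a match, and for Fam107a not every window does. Only in Sgk1 do the letters extend to the full palindrome, AGAACA and TGTTCT with 3 bases between, which 3 of 32851 promoters in the table hold, and every palindrome is also a core match. Windows ran from 250 bases ahead of the start to 50 after it, and a gene can have more than 1. The core was in 13 of 971 windows of genes that rose, 1 of 723 of genes that fell, 59 of 15754 for all genes tested and 156 of 32851 (0.475%) in the table. The arm AGAACA of the palindrome alone was in 13.0% of windows of all genes tested and 19.0% of all windows in the table. Windows were found for 73.2% of the genes that rose, 73.6% of those that fell and 66.1% of all genes tested, under the 80% set as a minimum, so a comparison of these shares between groups of genes is void. A match is a description of letters, not a bound site.

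These 5 genes were picked from those called higher, so their direction was fixed by the choice and says nothing on the motif. Sgk1 rose by 1.47 on the log2 scale, from 50.9 ± 2.01 to 142 ± 25.4 CPM (SD, n = 5). Fam107a rose by 1.18, from 266 ± 51.8 to 603 ± 35.2 CPM (SD, n = 5), and Mt1 by 1.06, from 90.6 ± 15.1 to 189 ± 15.4 CPM (SD, n = 5). Map3k6, named here for its motif, rose by 2.57, from 2.52 ± 0.712 to 15.0 ± 3.07 CPM (SD, n = 5), and Txnip by 0.79, from 19.9 ± 1.85 to 34.2 ± 2.94 CPM (SD, n = 5). The groups overlapped for none of the 5, and the adjusted p-values of edgeR's quasi-likelihood test with Benjamini-Hochberg adjustment ran from 1.43e-07 (Sgk1) to 0.00303 (Txnip).

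Most of the response consisted of modest changes. In what follows, a value in brackets after a gene is its log2 fold change of dexamethasone over PBS (SE is its standard error), CPM values stand in replicate order 1 to 5, and "held" means that a call and its direction remained when each of the 10 wild-type libraries was left out in turn, as was so for every called gene named here. With a gene called where edgeR's quasi-likelihood test gave an adjusted p under 0.05, 1717 of 18648 genes tested (9.21%) were called, 983 higher (5.27%) and 734 lower (3.94%). Among them, 1192 (6.39% of all tested) changed by less than 1.5-fold and 240 (1.29% of all tested) by 2-fold or more, and the median called change was 1.30-fold against 1.06-fold over all genes. The smallest changes, under 0.32 on the log2 scale, made up 467 of the rises and 254 of the falls. The call held for 1068 genes (5.73% of all tested), including 186 and 122 of those smallest rises and falls, 142 of the 161 rises of 2-fold or more and 61 of the 79 falls of that size. Between the bands the level of the genes differed: the smallest rises had a median level of 75.6 CPM and a median gene span of 75.3 kb, and those of 2-fold or more 2.16 CPM and 13.6 kb.

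**Figure D1:**
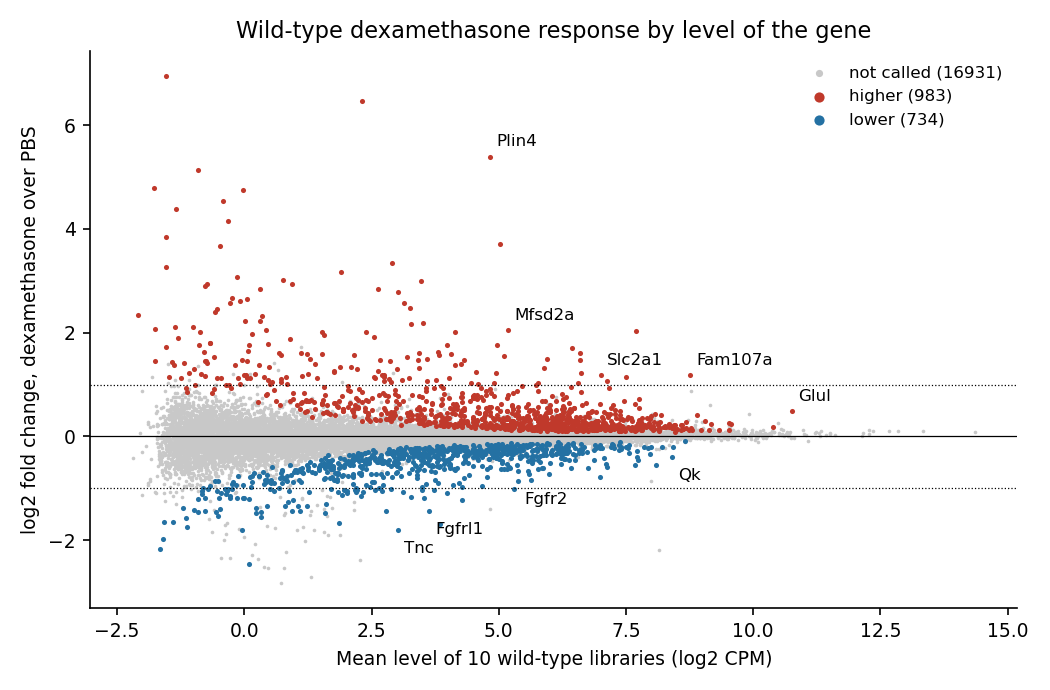
Each point is a gene, placed by its mean level over the 10 wild-type libraries (log2 CPM, x axis) and its log2 fold change of dexamethasone over PBS (y axis), with genes called higher in red, called lower in blue and not called in grey. The 983 rises and 734 falls lie close to 0 among abundant genes and reach far beyond the dotted 2-fold lines among genes of low level.

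**Figure D2:**
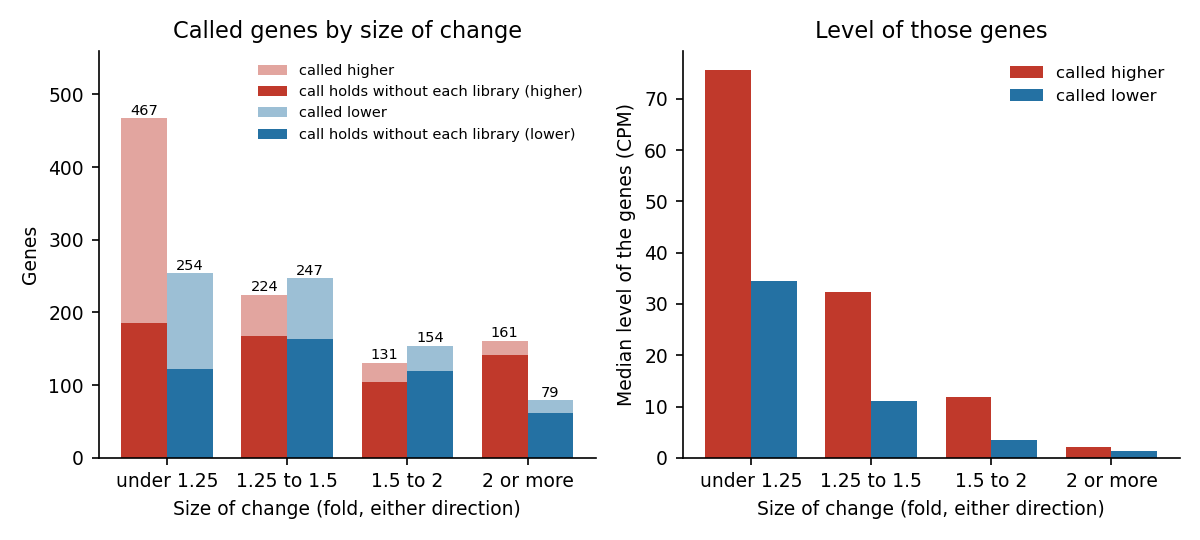
Bars give the number of genes called higher (red) and lower (blue) by size of change in fold, with the genes whose call held without each library in the darker part (left), and the median level of the called genes in CPM (right). Rises and falls in the band of the smallest changes number 467 and 254, and those of 2-fold or more 161 and 79.

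Of the 467 rises and 254 falls under 0.32 log2 units, 279 and 163 had groups that do not overlap, and 186 and 122 held without each library. Over all 18648 genes tested 1532 had no overlap, and of the 1717 called 1257. A call and a lack of overlap rest on the same libraries, so the 1 is no separate evidence for the other. Dnajc3, which encodes a co-chaperone of the endoplasmic reticulum, led these rises by p (log2 fold change 0.27, SE 0.03, adjusted p = 8.28e-07). Tmod2, which encodes a neuronal cap of actin filaments, was at 702, 699, 652, 674 and 661 CPM in the PBS libraries and 788, 772, 816, 819.6 and 836 CPM in the dexamethasone libraries. All 5 dexamethasone libraries lay above all PBS libraries, a small rise with little spread (log2 fold change 0.25, SE 0.03, adjusted p = 1.43e-06). Zcchc24 (0.27), Serinc3 (0.26) and Enah (0.23), whose protein extends actin filaments, followed. Among falls of that size Arhgap5, which encodes a GTPase-activating protein, led by p (log2 fold change -0.31, SE 0.04, adjusted p = 2.43e-06), and Chst10 (-0.27), Add3 (-0.24), Ddhd1 (-0.26) and the peroxiredoxin gene Prdx1 (-0.28) fell with it.

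In the next band, up to 1.5-fold, the leading rises included Tns3 (0.48), Elmo1 (0.57), Hip1 (0.47) and Ak3 (0.38), and the leading falls Mfap3l (-0.42), Plpp3 (-0.54), Ston2 (-0.55), Them4 (-0.56) and Sash1 (-0.42). In that of 1.5 to 2-fold they included Lrrc58 (0.94), Rin2 (0.97), Daam2 (0.71), Lrrc8c (0.87) and Azin1 (0.63), which encodes an inhibitor of the antizyme that restrains polyamine synthesis, and Slc14a1 (-0.97), which encodes a urea transporter, Lgr4 (-0.63), Sox2ot (-0.96) and S100a16 (-0.59). Lrrc58 was at 102, 105, 90.8, 101 and 93.1 CPM in the PBS libraries and 194, 193, 178, 197 and 183 CPM in the dexamethasone libraries. Its values differed by little within a group and stood far apart between groups (log2 fold change 0.94, SE 0.05, adjusted p = 4.02e-13).

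Abundant genes rose more often than they fell. When the genes tested were split by level into 4 classes of equal size, in the highest (46.2 CPM and above) 459 were called higher and 137 lower, with a median called change of 1.17-fold. In the lowest class 103 were higher and 100 lower, with a median of 2.21-fold. The precision differed in step, with a median standard error of the log2 fold change of 0.042 in the highest class and 0.25 in the lowest. Within the highest class the genes of longest span (48.3 kb and more) had 307 of 1928 called higher (15.9%) and 61 lower (3.16%), and the 371 genes of shortest span 11 higher and 9 lower. Over those 1928 genes the median deviation of a library from the mean of the 10 was -0.047 to -0.013 log2 units in the PBS libraries and -0.0031 to 0.050 in the dexamethasone libraries, a small difference in which the groups did not overlap. The count of rises among them was 207 to 297 when 1 library was left out. The scaling factors of the libraries were 1.006 to 1.029 under PBS and 0.982 to 1.007 under dexamethasone. With the size factors of DESeq2 in their place, 297 of these genes rose and 63 fell. The part of scaling in this small shift was not tested beyond that. The most abundant genes that rose include Glul, the glutamine synthetase gene of astrocytes, and Map1b, Abr, Tmod2, Trim2, Dlg2 and Fam107a, and the most abundant that fell Qk, Bsg, Plpp3, Pygb, St6galnac5, Adcyap1r1, Cspg5 and Aqp4. Glul was at 1479, 1651, 1321, 1386 and 1418 CPM in the PBS libraries and 2021, 2156, 2105, 1863 and 2006 CPM in the dexamethasone libraries, with every dexamethasone library above every PBS library (0.48). Reads of Glul can be shared with its processed pseudogene, so its value is uncertain. Qk, which encodes an RNA-binding protein of myelinating glia and astrocytes, was at 383, 381, 401, 388 and 375 CPM in the PBS libraries and 283, 290.2, 296, 296 and 307 CPM in the dexamethasone libraries, with no overlap (-0.39).

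The receptor's own messenger RNA fell. Nr3c1 was at 118, 118, 171, 139 and 131 CPM in the PBS libraries and 88.6, 92.6, 107, 98.3 and 107 CPM in the dexamethasone libraries, so that all 5 treated libraries lay below all 5 controls, and the fall was called (log2 fold change -0.46, SE 0.11, adjusted p = 0.0112). The mineralocorticoid receptor gene Nr3c2 was at 255, 234, 406, 307 and 283 CPM in the PBS libraries and 257, 239, 226, 255 and 279.9 CPM in the dexamethasone libraries. Its highest PBS value, in replicate 3, stood above all others, the groups overlapped, and the difference did not pass (log2 fold change -0.24, SE 0.14, adjusted p = 0.382). Among 22 steroid receptors and cofactors 3 rose and 1, Nr3c1, fell (18.2% called, against 9.21% of all genes tested). Of the rises only that of the histone acetyltransferase gene Ep300 (0.15) held without each library, and none of the 3 was called without the PBS libraries high in liver transcripts (replicates 1 and 2).

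Genes known as targets of the receptor moved up together: of 36 listed, 26 were called higher and none lower, 21 of the calls held without each library, and the median log2 fold change was 0.66 against -0.00051 over all genes tested. The list was chosen with earlier results of these data known, so its direction is no independent evidence. Its rises were not all large. The arrestin-domain gene Arrdc2 rose by 2.02, Mertk, which encodes a receptor for apoptotic cells, by 1.03 and the NF-kappaB inhibitor gene Nfkbia by 1.04, while the insulin receptor substrate gene Irs2 rose by 0.41 and the clock gene Per1 by 0.30. Of 21 Krüppel-like and Sp factors 4 rose (19.05% called, against 9.21% of all genes tested), among them Klf15 (1.01), Klf9 (0.44) and Klf13 (0.29). Among other nuclear receptors Ppara (0.58), Rora (0.34) and Rxra (0.27) rose, and Rorb (-0.89) and Nr2e1 (-0.84) fell. Nr2e1, which encodes the neural stem cell receptor TLX, was at 16.7, 18.3, 18.3, 15.4 and 17.9 CPM in the PBS libraries and 9.68, 9.46, 12.2, 7.06 and 9.20 CPM in the dexamethasone libraries, with no overlap between the groups.

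Genes on lists of neuronal families changed mostly by small amounts. These families are not confined to neurons: P2ry12 and P2ry13, for example, are also on the microglial list. Of 1122 distinct genes on 26 lists of channels, receptors, synapse, axon, second messengers, cytoskeleton and hippocampal cell fields, 161 were called (14.4%, against 9.21% of all genes tested), 95 higher and 66 lower. Of these, 123 changed by less than 1.5-fold and 16 by 2-fold or more, 98 held without each library and 118 had groups that do not overlap (6.74% of all genes tested were called without overlap). The median level of these genes was 45.02 CPM against 13.1 CPM over all genes tested. In the highest of the 4 level classes 12.6% of the genes on these lists were called against 12.8% of all genes. From the lowest class up, in the 3 others the shares were 12.3% against 4.35%, 16.4% against 9.63% and 17.4% against 10.1%. Leaving out 1 library gave 66 to 99 rises and 47 to 64 falls. Markers of neuron classes (8.33% called) and the synapse lists (7.78%) were under the share of all genes tested (9.21%).

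**Figure D3:**
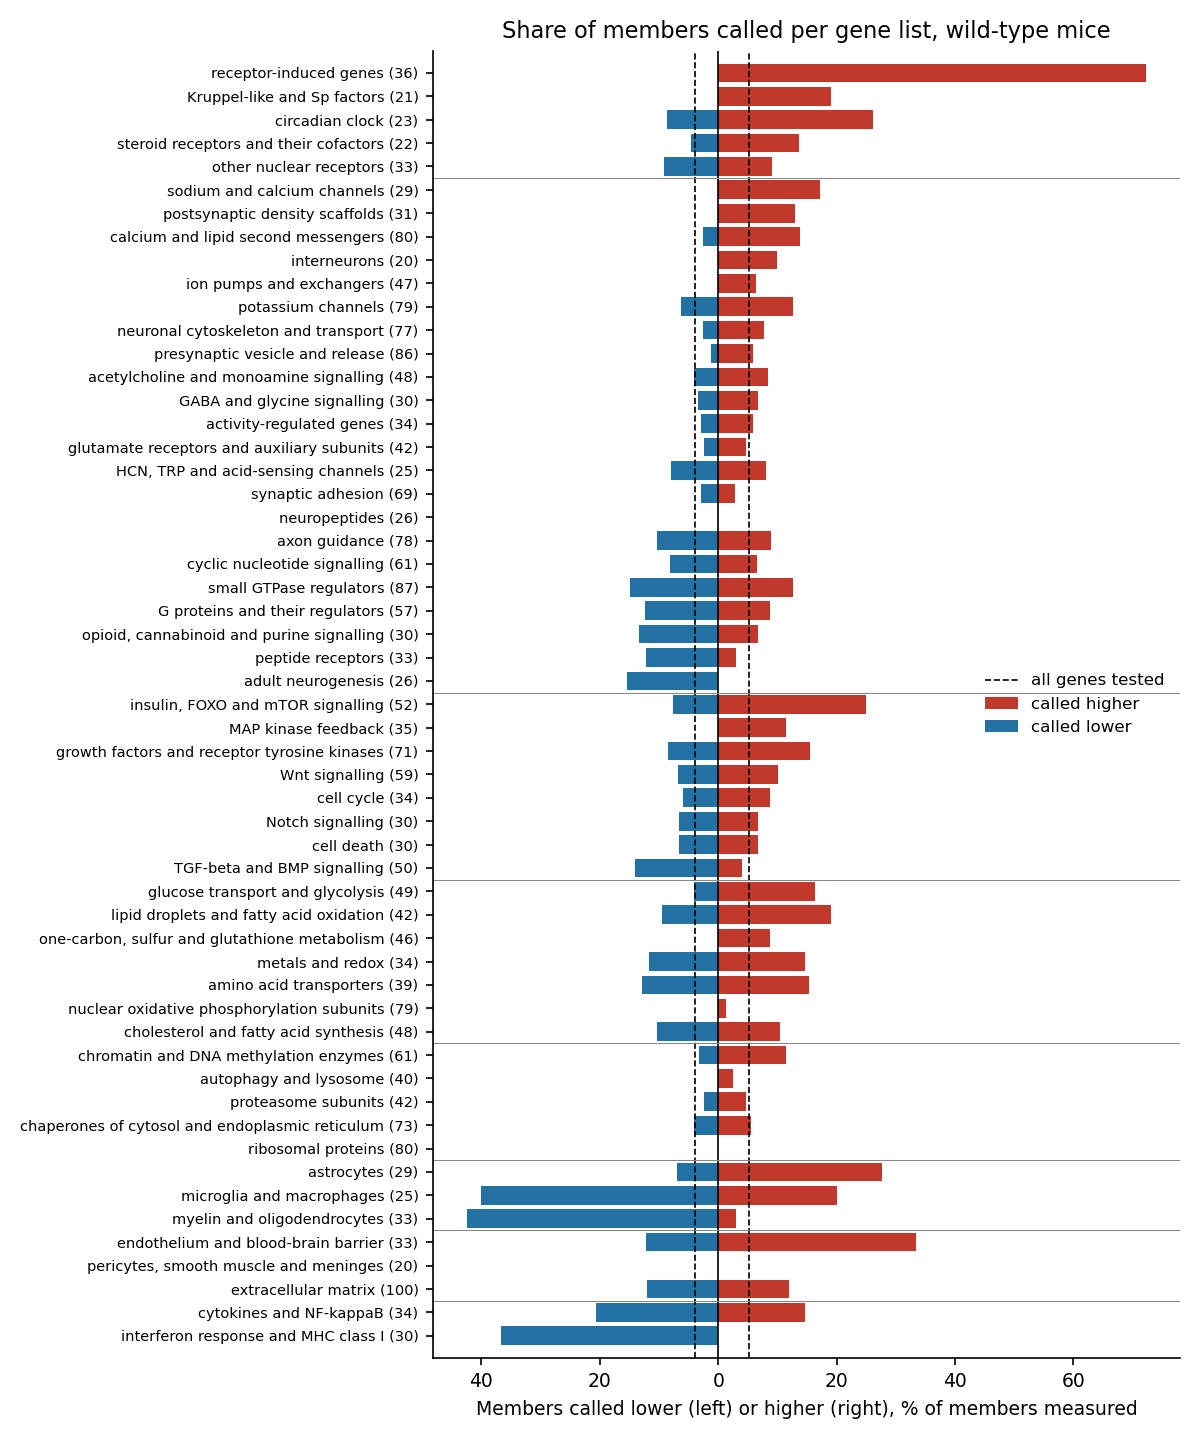
Bars show, for each gene list with at least 20 members measured (number in brackets), the percent of members called higher (red, right) and lower (blue, left) in wild-type mice, and dashed lines the same over all genes tested (5.27% higher, 3.94% lower). Known receptor targets reach furthest to the right, myelin, microglial and interferon genes furthest to the left, and ribosomal proteins, neuropeptides and pericyte genes have no bar.

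Ion channels moved in both directions. Of 79 potassium channel genes 10 rose and 5 fell (19.0% called, against 9.21% of all genes tested). Of these calls 6 and 5 held without each library, and 6 genes rose without dexamethasone replicate 5. Kcnt1, which encodes a sodium-activated potassium channel, was at 41.6, 44.0, 41.6, 42.7 and 48.7 CPM in the PBS libraries and 75.9, 82.2, 62.3, 69.1 and 65.0 CPM in the dexamethasone libraries. The lowest treated library lay well above the highest control (log2 fold change 0.69, SE 0.08, adjusted p = 5.06e-06). Kcnk1, a leak channel gene, was at 66.7, 73.7, 69.8, 73.0 and 68.0 CPM in the PBS libraries and 106, 105, 81.3, 86.5 and 87.3 CPM in the dexamethasone libraries, with dexamethasone replicates 1 and 2 above the other 3 treated libraries and all 5 above the controls (0.41). The leak channel gene Kcnk6 (0.66) and the calcium-activated channel gene Kcnn2 (0.30) also rose. The leak channel gene Kcnk13 (-1.03), Kcnn3 (-0.49), Kcna6 (-0.26) and the channel-interacting protein gene Kcnip3 (-0.27) fell.

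Of 29 sodium and calcium channel genes 5 rose and none fell (17.2% called, against 9.21% of all genes tested). Their median log2 fold change was 0.07, against 0.043 over the 1928 abundant genes of longest span, of which 15.9% rose. A comparison with genes of like level and span was not made. Of the calls 2 held without each library (2 were called without PBS replicate 3 or dexamethasone replicate 1, and 3 without replicate 5 of either group). Cacnb2, the gene of an auxiliary calcium channel subunit, was at 73.0, 68.5, 60.8, 67.1 and 64.2 CPM in the PBS libraries and 91.8, 83.4, 74.7, 81.2 and 74.3 CPM in the dexamethasone libraries. The groups lay next to each other without overlap (log2 fold change 0.28, SE 0.06, adjusted p = 0.00393). Cacna1b, which encodes the N-type calcium channel, rose by 0.14, a call that was lost without the PBS libraries high in liver transcripts. Of 19 chloride and volume channel genes 3 rose and 2 fell (26.3% called, and 2 to 3 and 1 to 2 when 1 library was left out). Lrrc8a and Lrrc8c, whose proteins are subunits of the anion channel that opens when cells swell, were among the rises. Lrrc8c was at 29.7, 32.7, 25.4, 28.7 and 28.3 CPM in the PBS libraries and 54.3, 55.8, 49.5, 54.4 and 51.5 CPM in the dexamethasone libraries. The groups stood far apart, and Lrrc8a (0.81) went from 11.0 ± 0.866 to 19.3 ± 1.04 CPM (SD, n = 5). Ano1, a calcium-activated chloride channel gene, fell by 0.74 on the log2 scale. The acid-sensing channel gene Asic2 rose (0.29), and the pacemaker channel gene Hcn3 fell (-0.32). Of 47 pumps and exchangers 3 rose (6.38% called, against 9.21% of all genes tested). Among them were the potassium-dependent sodium-calcium exchanger gene Slc24a4 (0.49) and the sparsely expressed Atp2c2 (1.61). The abundant sodium pump subunit gene Atp1b1 was at 0.06, which did not pass.

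**Figure D4:**
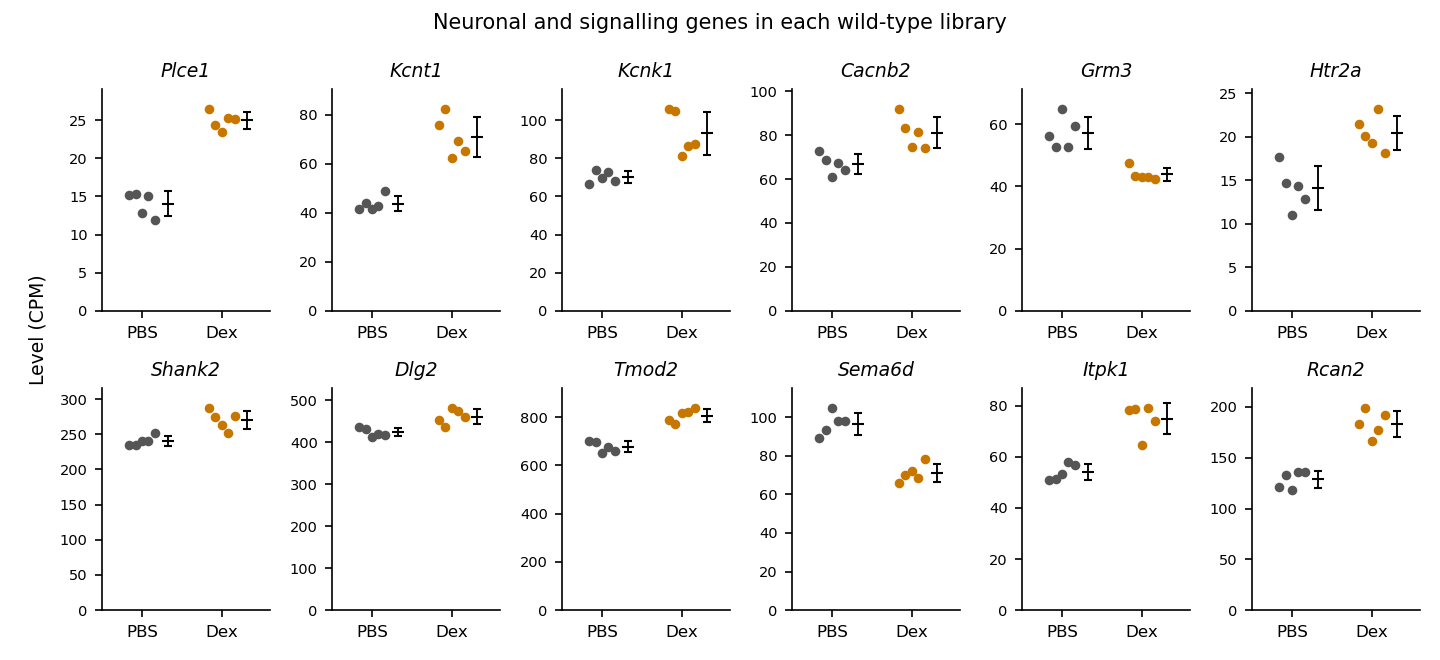
Points are the levels (CPM, y axis from 0) of 12 genes of neuronal families and signalling, which are not confined to neurons. The 5 PBS and 5 dexamethasone libraries are shown, with the mean and SD of each group as a black mark to the right. Grm3 and Sema6d lie lower under dexamethasone and the other 10 genes higher, and in every panel the groups do not overlap, though they nearly touch for Shank2 and Dlg2.

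At synapses 15 of 257 genes on 5 lists rose and 5 fell (7.78% called, against 9.21% of all genes tested). Of 30 genes of GABA and glycine signalling 2 rose, among them the receptor subunit gene Gabrr2 (2.23), and 1 fell (10% called). Gabrr2 was sparse and went from 0.408 ± 0.142 to 2.08 ± 0.649 CPM (SD, n = 5). The metabotropic GABA receptor gene Gabbr1 (0.01) did not pass. Of 42 glutamate receptor genes 2 rose and 1 fell (7.14% called). The fall alone held without each library (no rise was called without PBS replicate 3 or 5 or dexamethasone replicate 3 or 4). It was that of Grm3, the gene of an inhibitory metabotropic receptor, at 56.3, 52.7, 64.9, 52.6 and 59.4 CPM in the PBS libraries and 47.5, 43.5, 42.9, 43.2 and 42.4 CPM in the dexamethasone libraries. Dexamethasone replicate 1 stood above the other treated libraries and below every control (log2 fold change -0.38, SE 0.06, adjusted p = 2.05e-05). Gria1 (0.12) and Gria2 (0.07), which encode AMPA receptor subunits, did not pass.

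A few scaffold genes of the postsynaptic density rose slightly, with 4 of 31 higher, none lower and 2 calls that held (2 were called without PBS replicate 3). The share called was 12.9%, against 9.21% of all genes tested. The median log2 fold change of the 31 genes was 0.054. Over the 1928 abundant genes of longest span it was 0.043, with 15.9% called higher. A comparison with genes of like level and span was not made. Dlg2 was at 437, 432, 413, 421 and 417 CPM in the PBS libraries and 453, 437, 481, 474 and 460.0 CPM in the dexamethasone libraries. The lowest treated library, replicate 2, and the highest control, replicate 1, were level after rounding (log2 fold change 0.12, SE 0.03, adjusted p = 0.0102). Shank2 was at 234, 235, 241, 240.2 and 251.9 CPM in the PBS libraries and 287, 275, 263, 252.2 and 276 CPM in the dexamethasone libraries, where the lowest treated library and the highest control were level after rounding (0.17). Its call was lost without the PBS libraries high in liver transcripts (adjusted p = 0.0558). Of 86 genes of presynaptic vesicles and release 5 rose and 1 fell (6.98% called, against 9.21% of all genes tested). Without PBS replicate 3, 2 rose. Stxbp3, which encodes a partner of syntaxins, rose by 0.71, and the synaptotagmin genes Syt14 and Syt15 changed by 0.28 and -1.35. The abundant Snap25 (0.06), of the fusion machinery, and Slc17a7 (0.02), which encodes the vesicular glutamate transporter, did not pass. Of 69 synaptic adhesion genes 2 rose and 2 fell (5.80% called), of which the fall of Slitrk2 (-0.27) held without each library. Leaving out 1 library gave 1 to 4 rises and 1 to 3 falls on this list, with 1 rise without PBS replicate 3 or 5 and 4 without PBS replicate 1. Without the PBS libraries high in liver transcripts Slitrk2 was at -0.21 and lost its call (adjusted p = 0.073), and with the library high in choroid plexus transcripts left out too it was at -0.16 (adjusted p = 0.29).

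Genes that guide axons and shape neurites moved in both directions. Of 78 axon guidance genes 7 rose and 8 fell (19.2% called, against 9.21% of all genes tested), with 2 and 6 calls that held. The rises were 2 without PBS replicate 3, 3 without dexamethasone replicate 3, and 4 without PBS replicate 1 or dexamethasone replicate 2, 4 or 5. Sema6d, a semaphorin gene, was at 88.9, 93.2, 104, 97.9 and 98.0 CPM in the PBS libraries and 65.8, 70.0, 72.0, 68.4 and 78.5 CPM in the dexamethasone libraries, with no overlap (log2 fold change -0.44, SE 0.05, adjusted p = 1.21e-06). Sema6a (-0.40), the repulsive cue gene Rgma (-0.42), the netrin receptor gene Unc5b (-0.52), the netrin gene Ntn1 (-0.34) and the ephrin gene Efnb3 (-0.20) fell as well, while Sema3c (0.38) and the semaphorin receptor gene Plxna2 (0.22) rose. Among 77 genes of the neuronal cytoskeleton 6 rose and 2 fell (10.4% called, against 9.21% of all genes tested). Leaving out 1 library gave 4 to 8 rises and 0 to 3 falls, with no fall without PBS replicate 4 and 1 without PBS replicate 3 or dexamethasone replicate 1 or 4, and 3 rose without the PBS libraries high in liver transcripts. Map1b was at 1293, 1277, 1154, 1358 and 1183 CPM in the PBS libraries and 1385, 1343, 1452, 1403 and 1499 CPM in the dexamethasone libraries, where PBS replicate 4 reached into the treated range (log2 fold change 0.18, SE 0.04, adjusted p = 0.00428), and Map7 (0.28) and the ankyrin gene Ank3 (0.18), which organises the axon initial segment, rose too. Regulators of the small GTPases that act as switches of the actin cytoskeleton had 24 of 87 members called, 11 higher and 13 lower, of which 9 and 10 held (14 higher and 10 lower without the PBS libraries high in liver transcripts). Rhou was at 39.6, 42.1, 36.5, 36.5 and 37.8 CPM in the PBS libraries and 81.7, 73.9, 59.4, 73.8 and 63.7 CPM in the dexamethasone libraries, with every treated library above the controls (0.87). Arhgef37 (1.12) and Rhoj (0.70) rose, and Arhgef19 (-1.19), Cdc42ep2 (-0.72) and Dock1 (-0.34) fell.

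Receptors for transmitters and peptides changed singly. Htr2a, which encodes a serotonin receptor, was at 17.7, 14.7, 11.0, 14.3 and 12.9 CPM in the PBS libraries and 21.4, 20.1, 19.3, 23.2 and 18.2 CPM in the dexamethasone libraries. The highest control, replicate 1, lay just under the lowest treated value (log2 fold change 0.54, SE 0.12, adjusted p = 0.00572). The muscarinic receptor gene Chrm5 (1.35) rose from 2.10 ± 0.498 to 5.22 ± 1.38 CPM (SD, n = 5), with dexamethasone replicate 1 the highest at 7.60 CPM, and Ddc, which encodes the decarboxylase of dopamine and serotonin synthesis, by 1.30. Maoa, the gene of a monoamine-degrading enzyme, fell (-0.26). Both endothelin receptor genes fell, Ednra by 0.87 and Ednrb by 0.72 on the log2 scale. Ednrb was at 73.6, 64.1, 94.5, 86.0 and 78.5 CPM in the PBS libraries and 52.6, 47.7, 41.2, 47.8 and 51.6 CPM in the dexamethasone libraries, with no overlap. The PACAP receptor gene Adcyap1r1 fell by 0.20 and the sparse melanocortin receptor gene Mc5r rose by 1.04. No member of 26 neuropeptide genes was called by edgeR, DESeq2 or limma-voom, and 0 had an unadjusted p below 0.05, with the somatostatin gene Sst at 0.02. The adenosine deaminase gene Ada rose from 0.398 ± 0.140 to 2.15 ± 0.671 CPM (SD, n = 5), a log2 change of 2.32. In the same purine, opioid and cannabinoid list P2ry12, P2ry13 and P2rx7 fell, of which P2ry12 and P2ry13 are also on the microglial list, and the cannabinoid receptor gene Cnr1 was at -0.01, which did not pass.

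Among second messengers, the phosphoinositide and calcium branch had more rises than falls. Of 80 genes 11 were higher and 2 lower (16.25% called, against 9.21% of all genes tested), and 8 and 1 held. Their median log2 fold change was 0.08, against -0.00051 over all genes and 0.043 over the 1928 abundant genes of longest span. A comparison with genes of like level and span was not made. Plce1, a phospholipase C gene, was at 15.2, 15.4, 12.8, 15.1 and 11.9 CPM in the PBS libraries and 26.4, 24.4, 23.5, 25.3 and 25.1 CPM in the dexamethasone libraries. Itpk1, which encodes an inositol phosphate kinase, was at 50.8, 51.5, 53.1, 58.1 and 56.8 CPM in the PBS libraries and 78.5, 78.6, 64.6, 78.9 and 74.0 CPM in the dexamethasone libraries. Rcan2, the gene of a calcineurin regulator, was at 121, 133, 119, 136 and 135 CPM in the PBS libraries and 183, 198, 166, 177 and 192 CPM in the dexamethasone libraries. In all 3 the groups did not overlap, and the log2 changes were 0.84, 0.47 and 0.51. The inositol trisphosphate receptor gene Itpr2 (0.49), Plcl1 (0.39), the phospholipase gene Plcb4 (0.34) and the store sensor gene Stim1 (0.15) rose too. The cyclic nucleotide branch had 4 of 61 higher and 5 lower (14.75% called, of which 2 and 2 held). On this list 2 fell without PBS replicate 3, 3 fell without dexamethasone replicate 1 or 4, and 2 rose without dexamethasone replicate 3, 4 or 5. Among the called genes were Rapgef3, which encodes a cAMP-activated exchange factor (0.64), and the phosphodiesterase gene Pde4b (-0.24). Of 57 G proteins and regulators 5 rose and 7 fell (21.05% called). Rgs20, which encodes a G protein inhibitor, was at 20.6, 21.8, 24.7, 19.9 and 20.0 CPM in the PBS libraries and 8.91, 10.5, 11.1, 10.1 and 10.1 CPM in the dexamethasone libraries, with every treated library far below every control (-1.08). Gng11 (-0.93) and Gna12 (-0.30) fell, and Gng12 (0.28), Gpsm2 (0.59) and the receptor kinase gene Grk3 (0.19) rose.

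Of 60 markers of neuron classes 5 were called (8.33%, against 9.21% of all genes tested). Of 15 dentate granule, 10 CA1, 15 CA2 and CA3, and 20 interneuron genes, 2, 1, 0 and 2 were called, and of these the rise of Lamp5 (0.33) held without each library. Wfs1 (0.21), which marks CA1 neurons, did not pass. Of 34 activity-regulated genes 2 rose, Trib1 (0.78) and Maff (1.76), and 1 fell (8.82% called). Arc (-0.15), Jun (-0.07) and Egr3 (-0.12) did not pass. Adult neurogenesis genes had 4 of 26 lower and none higher (15.4% called). Sox2, which encodes a transcription factor of neural stem cells and astrocytes, was at 33.1, 31.6, 34.7, 35.9 and 37.0 CPM in the PBS libraries and 17.2, 21.7, 22.2, 16.9 and 22.2 CPM in the dexamethasone libraries. The groups stood well apart (log2 fold change -0.77, SE 0.08, adjusted p = 3.03e-07). Hopx (-0.46) and Lpar1 (-0.46), both on the same list, fell too, and the immature neuron gene Tubb3 (0.02) did not pass. Sox2 is not confined to stem cells, and which cells held these falls was not tested.

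Fuel transporters were among the changed genes. Of 49 genes of glucose transport and glycolysis 8 rose and 2 fell (20.4% called, against 9.21% of all genes tested). Slc2a1, which encodes the glucose transporter of the blood-brain barrier and astrocytes, was at 82.3, 84.2, 72.5, 77.6 and 78.3 CPM in the PBS libraries and 221, 218, 128, 185 and 142 CPM in the dexamethasone libraries. Dexamethasone replicates 3 and 5 lay between the controls and the other treated libraries (1.18). The insulin-sensitive transporter gene Slc2a4 (1.14) rose from 1.10 ± 0.131 to 2.41 ± 0.544 CPM (SD, n = 5), and the pyruvate dehydrogenase kinase gene Pdk2 by 0.29. Slc16a1, the gene of the lactate transporter MCT1, went the other way, at 62.7, 54.3, 67.8, 68.8 and 66.1 CPM in the PBS libraries and 26.5, 38.2, 37.7, 34.6 and 41.0 CPM in the dexamethasone libraries. No treated library reached the controls (log2 fold change -0.85, SE 0.11, adjusted p = 3.02e-05). The glycogen phosphorylase genes split, with Pygm at 0.46 and Pygb at -0.21, and the call of Pygb was lost without the PBS libraries high in liver transcripts. The glycolytic genes Pkm (0.04), Eno2 (-0.0017) and Tpi1 (-0.02) did not pass.

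Genes of lipid droplets and fatty acid oxidation had 8 of 42 members higher and 4 lower (28.6% called, against 9.21% of all genes tested). Pnpla2, which encodes the triglyceride lipase ATGL, was at 14.4, 14.9, 13.3, 14.5 and 14.3 CPM in the PBS libraries and 53.3, 58.9, 35.2, 52.7 and 41.8 CPM in the dexamethasone libraries, with dexamethasone replicate 3 the lowest treated value (1.76). The droplet coat gene Plin5 (1.34), the hormone-sensitive lipase gene Lipe (0.44), the mitochondrial carrier gene Ucp2 (1.04) and Lpin1 (0.35) rose, and the droplet coat gene Plin2 (-0.51) and the fatty acid binding protein genes Fabp5 (-0.26) and Fabp7 (-0.50) fell. In cholesterol and fatty acid synthesis 5 of 48 rose and 5 fell (20.8% called). The falls included Ugt8a (-0.72), Fa2h (-0.43) and Gal3st1 (-0.50), which make galactolipids of myelin, and the rises Fdft1 (0.30) and the cholesterol exporter gene Abca1 (0.54). Without the PBS libraries high in liver transcripts 2 rises were called in this list, and without PBS replicate 1, 2 or 4 or dexamethasone replicate 1 or 2 there were 3. Plpp3, which encodes a lipid phosphatase, was at 328, 316, 331, 316 and 325 CPM in the PBS libraries and 220.1, 212, 233, 221 and 223 CPM in the dexamethasone libraries, with ranges far apart for an abundant gene (log2 fold change -0.54, SE 0.05, adjusted p = 2.75e-08).

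Genes of amino acid and methyl metabolism were also called. Of 46 genes of one-carbon, sulfur and glutathione metabolism 4 rose and none fell (8.70% called, against 9.21% of all genes tested). Without PBS replicate 3 there were 4 rises and 2 falls, and 2 rises and 1 fall without the PBS libraries high in liver or choroid plexus transcripts. Mat2a, which encodes the enzyme that makes S-adenosylmethionine, was at 140.2, 143, 136, 132 and 129.9 CPM in the PBS libraries and 240.5, 233, 178, 232 and 204 CPM in the dexamethasone libraries. Dexamethasone replicate 3 was the lowest treated library and lay above every control (log2 fold change 0.67, SE 0.06, adjusted p = 2.91e-08). Cbs, the gene of the first enzyme of transsulfuration, rose from 26.7 ± 1.86 to 45.1 ± 4.04 CPM (SD, n = 5), and Mthfd2, a mitochondrial folate enzyme gene, from 6.15 ± 0.311 to 15.6 ± 6.12 CPM (SD, n = 5). Of 39 amino acid transporter genes 6 rose and 5 fell (3 fell without PBS replicate 3, 4 or 5 or dexamethasone replicate 1, 3, 4 or 5). The large neutral amino acid transporter gene Slc7a5 (0.52), Slc38a2 (0.45) and the sparse Slc43a3 (2.02) and Slc43a1 (1.80) rose, and the glutamine transporter genes Slc38a3 (-0.44) and Slc38a5 (-1.66) and the neutral amino acid transporter gene Slc1a4 (-0.32) fell. The glial glutamate transporter genes Slc1a2 (0.01) and Slc1a3 (0.01) did not pass. Among metal and redox genes the zinc importer gene Slc39a14 rose (0.27), and Slc39a8 (-0.74), Slc30a10 (-0.46) and Steap3 (-0.70) fell.

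On the list of insulin, FOXO and mTOR signalling 13 of 52 genes were higher and 4 lower (7 and 4 held, and 8 rose without PBS replicate 3 or 5). On that of growth factors and receptor tyrosine kinases 11 of 71 were higher and 6 lower, and 9 and 9 without the PBS libraries high in liver transcripts. Sgk3, which encodes a kinase downstream of phosphoinositides, was at 11.4, 10.5, 11.3, 10.9 and 8.34 CPM in the PBS libraries and 30.9, 35.3, 19.5, 35.2 and 25.6 CPM in the dexamethasone libraries. The treated libraries spread widely, with replicate 3 the lowest, and none reached the controls (log2 fold change 1.47, SE 0.16, adjusted p = 4.81e-06). Igf1r, the gene of the insulin-like growth factor receptor, was at 74.7, 73.8, 59.8, 74.8 and 69.9 CPM in the PBS libraries and 84.6, 91.1, 87.5, 88.9 and 92.4 CPM in the dexamethasone libraries, with the groups close but not overlapping (0.34). Foxo3 (0.30) and Pik3r1 (0.22) rose, and Akt2 (-0.38) and Ddit4l (-0.65) fell. The fibroblast growth factor (FGF) system changed on both the ligand and the receptor side. Of ligands, Fgf2 (0.42) and Fgf1 (0.19) rose. Of receptors, Fgfr1 (0.49) and Fgfr3 (0.63) rose, while Fgfr2 was at 53.1, 49.9, 55.9, 57.0 and 52.0 CPM in the PBS libraries and 25.5, 28.7, 28.9, 28.3 and 35.8 CPM in the dexamethasone libraries, a fall of 0.86 on the log2 scale, and the receptor-like gene Fgfrl1 fell by 1.44. The hepatocyte growth factor gene Hgf rose (0.85), and the collagen receptor gene Ddr1 (-0.32) fell.

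Developmental pathways had changes in both directions. Of 59 Wnt genes 6 rose and 4 fell (16.95% called, against 9.21% of all genes tested). Without the PBS libraries high in liver transcripts 4 rose and 5 fell. Fzd2, a Wnt receptor gene, was at 6.22, 7.30, 7.02, 6.62 and 8.21 CPM in the PBS libraries and 23.4, 25.6, 18.7, 19.5 and 19.0 CPM in the dexamethasone libraries, with dexamethasone replicates 1 and 2 the highest (log2 fold change 1.57, SE 0.12, adjusted p = 3.54e-09). The receptor gene Fzd4 (0.79), the co-receptor genes Lrp5 (0.55) and Lrp6 (0.24) and the ligand gene Wnt3 (0.80) rose, and the ligand gene Wnt7a (-0.70), Lgr4 (-0.63), which encodes a receptor for R-spondins, and the inhibitor gene Nkd1 (-0.48) fell. In TGF-beta and BMP signalling 2 of 50 rose and 7 fell (18% called, of which 2 and 5 held). Among the falls were the inhibin subunit gene Inhbb (-0.78), the receptor gene Bmpr1b (-0.36) and Id3 (-0.44). Of 30 Notch genes 2 rose, the modifier gene Lfng (1.12) and Notch4 (0.94), and 2 fell (13.3% called). Both rises held without each library and neither fall did. In the Hedgehog list Gli3 (-0.80) and Hhip (-0.57) fell and Scube2 (1.01) rose.

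**Figure D5:**
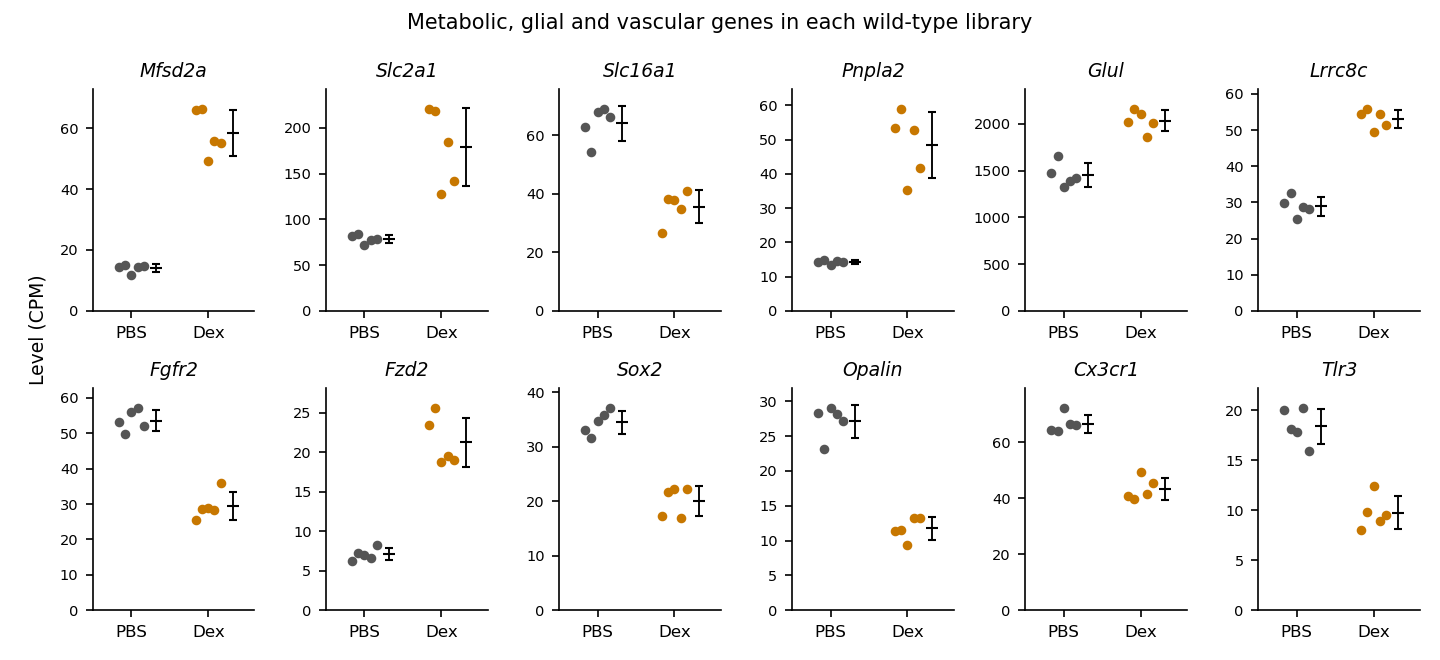
Points are the levels (CPM, y axis from 0) of 12 genes of metabolism, growth signalling, glia and vessels in the 5 PBS and 5 dexamethasone libraries, with the mean and SD of each group as a black mark to the right. Mfsd2a, Slc2a1, Pnpla2, Glul, Lrrc8c and Fzd2 lie higher under dexamethasone and the other 6 genes lower, and in every panel the groups do not overlap.

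By area, glial genes held the highest share of calls. Of 99 genes on 4 glial lists 17 rose and 29 fell (46.5% called, against 9.21% of all genes tested). Among 33 genes of myelin and oligodendrocytes 14 fell and 1 rose (11 and 1 held; median log2 fold change -0.24). Opalin, an oligodendrocyte membrane protein gene, was at 28.3, 23.1, 29.0, 28.2 and 27.1 CPM in the PBS libraries and 11.3, 11.5, 9.36, 13.3 and 13.2 CPM in the dexamethasone libraries. Every treated library lay below every control (-1.23). The connexin gene Gjb1 (-1.07) and the carbonic anhydrase gene Car2 (-0.59) fell too, and the apolipoprotein gene Apod rose (0.60). The transcript of myelin basic protein, Mbp (0.06), did not pass. Without dexamethasone replicate 3, 5 genes of this list rose. They were Apod, Mobp, Olig1, Hapln2 and Anln, the last 4 named after their values were seen. With all libraries Mobp, Olig1, Hapln2 and Anln were not called. Mobp, which encodes a myelin protein, was at 222, 216, 228, 207 and 219 CPM in the PBS libraries and 329, 321, 208, 308 and 309 CPM in the dexamethasone libraries. Dexamethasone replicate 3 lay within the control range and the 4 other treated libraries far above it.

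That library lay nearest to the controls for many genes. Of the 983 genes called higher, 493 had their lowest treated value in dexamethasone replicate 3, against 86 to 137 in each of the other 4. Over all genes tested the count was 3566 of 18648 (19.1%). Among the 161 rises of 2-fold or more it was 104. Among the 734 falls its value was the highest treated one for 196, and that of dexamethasone replicate 5 for 206. Without replicate 3, 1692 genes were called, 1490 of them among the 1717.

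Most called astrocyte genes rose and most called microglial genes fell. Of 29 astrocyte genes 8 rose and 2 fell, all of which held (4 fell without dexamethasone replicate 3). The secreted protease gene Htra1 (1.15) rose from 113 ± 12.5 to 251 ± 22.8 CPM (SD, n = 5) and the connexin gene Gjb6 by 1.32, and the water channel gene Aqp4 (-0.40) and the thyroid hormone transporter gene Slco1c1 (-0.62) fell. Of 25 microglial and macrophage genes 10 fell and 5 rose (8 and 3 held, and 3 rose without PBS replicate 1 or 4 or dexamethasone replicate 1 or 2). Cx3cr1, the fractalkine receptor gene, was at 64.4, 64.0, 72.1, 66.5 and 66.3 CPM in the PBS libraries and 40.7, 39.7, 49.3, 41.4 and 45.4 CPM in the dexamethasone libraries, with no overlap (-0.62). Aif1 (-0.72), Siglech (-0.36) and Fcrls (-0.31) fell with it. The rises included Cd163 (1.26) and Lyve1 (1.65), which mark macrophages at the borders of the brain, while the complement gene C1qc (0.04) did not pass. Meningeal markers, the tissue of such border cells, overlapped between the groups as given above, and their part in these 2 rises was not tested.

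Vessel transporters were among the clearest changes. Of 33 genes of endothelium and the blood-brain barrier 11 rose and 4 fell (8 and 3 held). Mfsd2a, which encodes the lipid carrier that imports docosahexaenoic acid and keeps endothelial vesicle traffic low, had the smallest p of all genes and was at 14.6, 15.2, 11.9, 14.5 and 14.6 CPM in the PBS libraries and 65.9, 66.2, 49.1, 55.7 and 55.1 CPM in the dexamethasone libraries. PBS replicate 3 was the lowest control, and every treated library stood far above every control (log2 fold change 2.05, SE 0.08, adjusted p = 3.55e-14). The drug exporter genes Abcg2 (0.48) and Abcc4 (0.62) rose, and the tight junction gene Cldn5 (0.02) did not pass. None of 20 pericyte, smooth muscle and meningeal genes was called by edgeR, DESeq2 or limma-voom, and 3 had an unadjusted p below 0.05. In the extracellular matrix 12 of 100 genes rose and 12 fell (11 and 6 held; 7 fell without PBS replicate 4 or dexamethasone replicate 1). The basement membrane genes Col4a1 (0.55) and Lamc1 (0.47) and the protease inhibitor genes Timp3 (0.44) and Timp4 (0.49) rose, and the glycoprotein gene Tnc (-1.81) fell.

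Most of the immune genes that were called fell. Of 30 interferon and MHC class I genes 11 fell and none rose (6 held; 7 fell without dexamethasone replicate 1 or 4, and 5 without the PBS libraries high in liver or choroid plexus transcripts, replicates 1, 2 and 4). The GTPase gene Gbp3 fell by 1.05 on the log2 scale and the peptide transporter gene Tap1 and its partner gene Tapbp by 0.46 and 0.25, and B2m (-0.0016) did not pass. The Gbp genes have near-identical copies, and their values are uncertain. In the cytokine and NF-kappaB list 5 of 34 rose and 7 fell (3 and 5 held; 3 rose without PBS replicate 3, 4 or 5 or dexamethasone replicate 1 or 2). Tlr3, which encodes a receptor for double-stranded RNA, was at 20.0, 18.1, 17.8, 20.2 and 15.9 CPM in the PBS libraries and 8.02, 9.84, 12.4, 8.91 and 9.56 CPM in the dexamethasone libraries, with no overlap (-0.90), whereas Tlr7 (1.18), for single-stranded RNA, rose from 3.95 ± 0.167 to 9.01 ± 2.16 CPM (SD, n = 5). The interleukin 6 receptor gene Il6ra rose (0.52) and its signalling partner gene Il6st fell (-0.25). The chemokine gene Cxcl12 (-0.27) and the alarmin gene Il33 (-0.37) fell.

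None of 80 ribosomal protein genes and 13 mitochondrial messenger RNAs was called by edgeR, DESeq2 or limma-voom, with 5 and 1 of them at an unadjusted p below 0.05. Of 79 nuclear genes of oxidative phosphorylation 1 was called by edgeR, Cox6a2 (0.71). Mitochondrial messenger RNAs made up 5.62% ± 0.536 of counts under PBS and 5.85% ± 0.545 under dexamethasone (SD, n = 5), with a p of 0.524 in a two-sided exact permutation test, whose smallest possible p is 0.00794. Of 42 proteasome genes 2 rose and 1 fell (7.14% called, against 9.21% of all genes tested). Of 40 autophagy and lysosome genes 1 rose (2.5%), the cathepsin gene Ctsl (0.28), and of 73 chaperones 4 rose and 3 fell (9.59%). Hspb8 (0.66), Dnajc3 and Hspa2 (0.27) rose, and Dnajb2 (-0.35) and the disulfide isomerase gene Pdia4 (-0.32) fell. Of 61 chromatin genes 7 rose and 2 fell (14.75% called, of which 4 and 0 held). Among the rises were the histone demethylase genes Kdm3a (0.36) and Kdm4b (0.30) and the histone methyltransferase gene Ezh2 (0.57).

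The knockin libraries lie outside the wild-type comparison, although 1 estimate of spread is shared by all groups. Of the 1717 genes called in wild-type mice 1699 (99.0%) changed in the same direction in knockin mice, against 70.2% of all genes tested, and 1262 were called there in that direction and none in the other. The same sign was common at both ends of the size range: of the smallest rises (under 0.32 log2 units) 464 of 467 had the same sign and 276 were called in knockin mice, and of rises of 2-fold or more 160 of 161 and 147. For the falls the counts were 249 of 254 and 175 called among the smallest, and 77 of 79 and 59 called at 2-fold or more. The test of the difference between the responses called no gene by edgeR's quasi-likelihood test. Its unadjusted p was below 0.05 for 93 of the 1717 genes and for 527 of 18648 tested. DESeq2 and limma-voom also called 0 genes for this difference. Among the genes of the neuronal lists shown above, the knockin log2 fold change was 0.63 for Kcnt1, -0.47 for Grm3, 0.48 for Rcan2 and 0.07 for Shank2. The unadjusted p of the difference by edgeR's quasi-likelihood test was 0.0733 for Shank2 and 0.284 to 0.733 for the other 3. A difference that misses the threshold does not show that the responses were alike.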

How the data were processed

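RNA from whole hippocampus of 20 adrenalectomized mice was selected for poly(A), made into TruSeq libraries and sequenced as 75-base paired ends, per the labels' protocols. The submitters' processing notes list STAR 2.5.1, Subread 1.5.1, DESeq2 1.38.3 and build mm39. Each deposited file holds counts of read pairs by gene, not normalized, which the authors made with featureCounts 2.0.6 on GENCODE M34, per the file headers, without strand and without reads of several places. Reads of near-identical genes or of a gene and its antisense partner therefore cannot be told apart. The wild-type libraries held 12945784 to 30617506 counts, and deeper libraries give smaller counting error.

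Symbols were matched for 51884 of 57126 gene IDs, and the 5242 others held 0.264 to 0.337% of counts. Samples were grouped by genotype and treatment as labelled. Counts were fitted with edgeR 4.0.16 (R 4.3.3): TMM scaling, filterByExpr with a minimum count of 10 and a minimum total of 15, 1 term per group over all 20 libraries with no covariate, the robust quasi-likelihood F test, and Benjamini-Hochberg adjustment over 18648 genes. The fit had 16 residual degrees of freedom, and the genes' biological coefficient of variation was 7.08%. The fitting script was tested on simulated data first. The response of the wild type is the dexamethasone group minus the PBS group, and the difference between genotypes is the interaction term. Tables and figures were made with Python 3.11.15, pandas 2.3.3, scipy 1.17.1 and matplotlib 3.10.9.

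The members, the 68 gene lists and the alternatives were chosen with earlier results of these data known, so no list is independent evidence. The genes named are, per list, up to 8 called genes by p whose call held without each wild-type library and up to 3 abundant genes that were not called. To these come the 5 leading genes per size of change and direction, the 8 most abundant called genes per direction, and Nr3c1 and Nr3c2. Map3k6, Arc, Plin2, Fabp7, Fgfr1, Mobp, Olig1, Hapln2 and Anln were named after their values were seen. Some genes that the rule picks are not reported here. Lists were counted and not tested. Alternatives were DESeq2 1.42.0 and its size factors, limma-voom 3.58.1, other filters, wild-type libraries alone, a block on replicate number, each library left out, and, added after the data were seen, the PBS libraries high in liver (replicates 1 and 2) or also choroid plexus transcripts (replicate 4) left out. Promoter windows come from a RefSeq table of GRCm38.p6 and were searched on both strands, and no coordinates were converted.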

Additional observations from a re-analysis of the deposited data

Results flagged for a closer look

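In 100 groups of 5 wild-type libraries (41 genes, 8 marker sums and the mitochondrial share, each under PBS and dexamethasone), 8 had a library whose gap to its nearest neighbour exceeded 0.71 of the group's range, which chance gives in about 1 group in 20. For Grm3, dexamethasone replicate 1 was at 47.5 CPM and the other treated libraries at 42.4 to 43.5. For Chrm5, the same library was at 7.60 CPM and the others at 4.26 to 5.22. Mfsd2a was at 11.9 CPM in PBS replicate 3 against 14.5 to 15.2 in the other controls, and Sgk3 at 8.34 CPM in PBS replicate 5 against 10.5 to 11.4. Mobp was at 208 CPM in dexamethasone replicate 3 against 308 to 329 in the other treated libraries. The choroid plexus markers summed to 1808 CPM in PBS replicate 4 against 69.6 to 361 in the other controls, and to 394 CPM in dexamethasone replicate 2 against 76.2 to 119 in the other treated libraries. The striatal markers summed to 80.7 CPM in dexamethasone replicate 2 against 70.5 to 73.4 in the others.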

How the results depend on the processing

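Among the genes named or shown, no call reversed under any alternative, and the difference in mitochondrial share kept its sign. No gene called both in the main fit and in an alternative changed direction. Genes outside these were not checked for direction. The balance of rises and falls turned on 9 of 68 gene lists under at least 1 alternative. Without the 2 PBS libraries high in liver transcripts these were steroid receptors (from 3 rises and 1 fall to 0 and 1), the circadian clock (6 and 2 to 3 and 4), small GTPase regulators (11 and 13 to 14 and 10), Wnt signalling (6 and 4 to 4 and 5), the cell cycle (3 and 2 to 2 and 5) and liver markers (0 and 1 to 1 and 0), and the signalling lists joined went from 45 and 30 to 37 and 38. Leaving out 1 library gave 715 to 989 rises, 573 to 715 falls, 814 to 1125 calls under 1.5-fold, 204 to 258 of 2-fold or more, and 0 calls for the difference between genotypes. It gave 98.1 to 99.2% of the called genes with the same sign in knockin mice and a difference in mitochondrial share of 0.0711 to 0.428 percentage points. The fewest calls came without PBS replicate 3 (1288, of which 1246 were among the 1717). With a filter of 50 counts in 5 libraries, 133 genes were called at 2-fold or more in place of 240, since 14666 genes were tested. The core motif was in 4.55% of windows of rises of 2-fold or more against 1.34% of all rises, with the match of genes to windows too low for a comparison. DESeq2 called 1048 rises and 783 falls, limma-voom 953 and 675. With the replicate number as a block, 949 rose and 694 fell, 1562 of these calls were among the 1717, 99.2% had the same sign in knockin mice, and no gene differed between genotypes. Replicate numbers did not pair the wild-type libraries: correlations of deviations were -0.175 to -0.0085, and 0 of 10 libraries correlated best with their own number. Without the 2 PBS libraries high in liver transcripts 1747 genes were called, 1357 of them shared, and 12 of 291 genes named by the rule lost the call, of those in the text Cacna1b, Ep300, Fdft1, Hspa2, Lrp6, Pygb, Shank2 and Slitrk2. Without 3 PBS libraries, choroid plexus included, 1367 were called, 1105 shared, and 30 lost it, among them the same genes except Lrp6 and also Gpsm2, Il33, Lipe, Maoa, Mthfd2, Ntn1, P2rx7, Pde4b, Slc38a2, Slc38a3, Tap1 and Wnt3. The falls then numbered 4 of G proteins (7 with all libraries), 4 of TGF-beta and BMP signalling (7), 7 of the extracellular matrix (12) and 5 of the interferon list (11), and the neuronal lists had 88 rises and 56 falls. Of the other alternatives, the filter of 50 counts left 7 of the named genes untested, the rest cost at most 5 their call, and of those in the text these were Dlg2 and Hspa2 without a filter on low counts. Depth limits genes of low level, where the median standard error is largest.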
